A study of Mus musculus with 3 samples.

Results

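Cells in S phase, the part of the cell cycle in which DNA is copied, were picked out of small intestinal cells by the summed level of 6 genes: Pcna, Mcm6, Hells, Uhrf1, Rrm2 and Lig1. A cell was a member where these genes made up at least 10.0 of every 10000 of its UMIs (unique molecular identifiers, 1 for each captured RNA molecule), where 8 mitotic genes (Ube2c, Cdc20, Ccnb1, Birc5, Cenpa, Cdca3, Top2a and Cenpf) made up less than 20, and where the 20 genes with names starting with Defa, the defensins of Paneth cells, made up less than 1500. The rule found 1019 S phase cells among 12653. The cells came from male ICR mice, an outbred strain, 3 weeks old at the start, which were gavaged daily for 2 weeks. AOS 0 mice received vehicle, B + A 0 mice busulfan 40 mg/kg and vehicle, and B + A 10 mice busulfan 40 mg/kg and AOS 10 mg/kg. Busulfan was given as 1 injection on the day before gavage began, and tissue was taken after the 2 weeks of gavage. Busulfan is an alkylating anticancer drug that crosslinks DNA, and AOS are alginate oligosaccharides, short sugar chains made from alginate.

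Each group was 1 droplet library of the combined cells of 6 mice, so there was no replicate and no test between groups, and the spread between mice, lanes and days was not measured. Parentheses hold 95% intervals, which measure counting error and nothing else. The 3 libraries held 3195 to 5352 cells and 23003083 to 35258551 UMIs. Depth differed between them, with a median of 7371 UMIs per cell in the vehicle library, 6407 with busulfan and 3505 with busulfan and AOS, and of 8421, 7057 and 3892 UMIs per S phase cell. Where 3 values follow each other they stand in this order. Between 17 and 34 cell barcodes were shared by a pair of libraries, 1 of them among the S phase cells. In the labels the source field of both busulfan libraries went against their title, description and treatment, which gave the same groups and were used here.

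The small intestinal epithelium is renewed from the crypts, pockets in which stem cells marked by Lgr5 and Olfm4 divide into transit-amplifying cells that cycle further before they move up the villus as absorptive or secretory cells. Before S phase a cell loads the MCM helicase onto its origins (licensing). In S phase it starts the forks with CDC45 and GINS and copies DNA with polymerases clamped by PCNA, while it makes nucleotides and new histones. Many of these genes are turned on together at the G1/S boundary by E2F transcription factors, which are released from RB proteins when cyclin E and cyclin D kinases act. A DNA crosslink blocks a fork and is repaired largely in S phase by the Fanconi anemia and homologous recombination genes.

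Of the 6 genes of the rule, 4 (Mcm6, Lig1, Uhrf1 and Hells) held an E2F core, searched on both strands as TTCCCGC or as either TTGGCGC or TTCGCGC, in the 300 bases from 250 before to 50 after a RefSeq start (GRCm38.p6), and Pcna and Rrm2 held none of these letters there. The core was in the windows of 9.20% of all 27025 genes with a window. The stretches before a RefSeq start that hold it in 3 of the genes are printed 5′ to 3′ on the gene's strand, with the core in capitals, because these genes are the ones that define the cells.
Mcm6, chr1:128359722-128359834, minus strand: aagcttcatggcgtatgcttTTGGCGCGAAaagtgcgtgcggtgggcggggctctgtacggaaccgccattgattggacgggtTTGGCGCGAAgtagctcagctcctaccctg
Uhrf1, chr17:56303269-56303315, plus strand: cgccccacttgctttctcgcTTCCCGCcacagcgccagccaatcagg
Uhrf1, chr17:56304109-56304155, plus strand: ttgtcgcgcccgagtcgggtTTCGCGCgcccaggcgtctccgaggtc
Hells, chr19:38930927-38930955, plus strand: ttTTCCCGCgaaagagaagcGCGCGAAtt
In Mcm6, which encodes a subunit of the replicative helicase, TTGGCGC overlaps TTCGCGC on the opposite strand at both places, so that 4 matches lie there in 2 runs. In Hells, a chromatin remodeler of the SNF2 family, the stretch holds 1 match on each strand, beginning 61 and 43 bases before the RefSeq start, and it touches an exon of the GENCODE annotation, where the gene starts earlier, at 38930915. The matches in Uhrf1, which brings DNMT1 to newly copied DNA, lay 48 and 184 bases before 2 RefSeq starts. A match is a description of the letters and not of binding.

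Among the wider lists the E2F core was in 8 of 13 licensing and helicase genes with a window (61.5%), 15 of 22 polymerase and fork genes (68.2%), 12 of 22 crosslink repair genes (54.5%), 7 of 15 G1/S regulators (46.7%), 6 of 15 genes of nucleotide supply and 3 of 8 of histone supply and chromatin (37.5%). It was in 3 of 21 genes of G2 and mitosis (14.3%), beside 15.9% of the 10576 genes of the expression table with a window. The S phase lists thus held the E2F core more often than the mitotic list. The CCAAT box, searched as CCAAT on both strands, was in 18 of 21 genes of G2 and mitosis (85.7%), 7 of 8 of histone supply and chromatin (87.5%), 9 of 13 licensing genes (69.2%), 9 of 15 G1/S regulators, 12 of 22 polymerase and fork genes (54.5%) and 7 of 15 genes of nucleotide supply (46.7%), beside 42.9% of the genes of the table. The windows of different genes were matched by symbol and genes without a window were left out.

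The values that chose the cells are given as a description. The sum of the 6 genes had a lowest, median and highest value of 10.0, 14.5 and 41.6 UMIs per 10000 in the S phase cells of AOS 0, of 10.0, 13.3 and 34.0 in B + A 0 and of 10.0, 14.9 and 58.9 in B + A 10. These rested on a median of 13, 10 and 6 UMIs of the 6 genes per cell, and on 3 UMIs in the lowest cell. Of the cells just inside the threshold 152 had a sum of 10.0 to 11, and 157 cells just outside had 9 to 10.0. A further 17 members had a mitotic sum of 18 to 20, and 22 cells were left out with a sum of 20 to 22. Pcna, the sliding clamp, gave 32.0% of the sum, Hells 17.6%, Lig1 (DNA ligase 1, which joins Okazaki fragments) 17.3%, Mcm6 12.8%, Uhrf1 10.6% and Rrm2 (the small subunit of ribonucleotide reductase) 9.76%. All 6 genes had a UMI in 178 members, 5 of them in 315 and 4 in 288, and 5 members had UMIs of 1 gene. Without Pcna, 499 members would have stayed past the threshold.

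**Figure D1:**
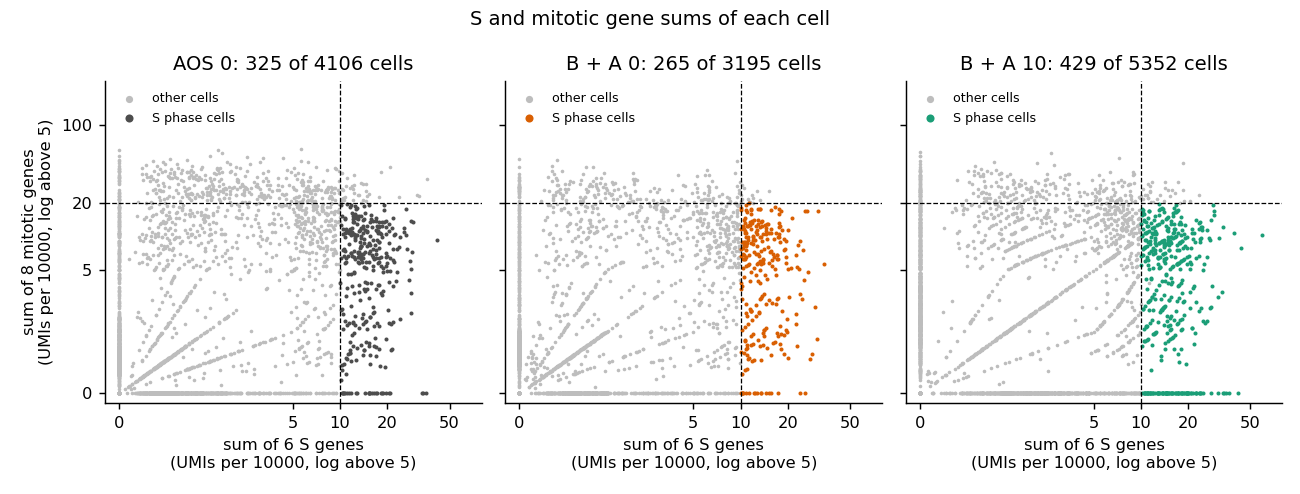
Each point is 1 cell, with the sum of the 6 S genes on the horizontal axis and of the 8 mitotic genes on the vertical axis, both in UMIs per 10000 on a scale that is logarithmic above 5, with a panel for each library. Dashed lines mark the thresholds of 10.0 and 20, and the coloured S phase cells lie right of the first and under the second, with 325, 265 and 429 cells. Rows of points at low values are cells with a few whole UMIs.

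The S phase cells were checked against the markers of the tissue. Olfm4, a stem cell gene of the crypt base, had no UMI in 158 of them. It was at 10.0 UMIs per 10000 or more in 563 cells without the markers of the next 2 sets (55.3%), called Olfm4-high here. A set of 74 cells (7.26%) had 50 or more UMIs per 10000 of the T cell list (Cd3g, Cd3d, Cd3e, Cd7, Gzma, Gzmb, Nkg7 and Ptprc) and went against the label of crypt cells, so that these are called T cell marker cells and their part in each result is given. Another set of 59 cells (5.79%) had 50 or more of Agr2, a protein disulfide isomerase of mucus-making cells. The remaining 323 cells (31.7%) are called other cells. The cuts were chosen after the values were seen, and 21 cells lay at 25 to 100 of the T cell list, 36 at 25 to 100 of Agr2 and 249 at 5 to 20 of Olfm4. Col1a1 and Col1a2, the collagens of stroma, had no UMI, and the tuft and stroma lists had no gene with 100 UMIs in S phase cells.

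The sets differed in genes that the cuts had not used. Reg4, a lectin of secretory cells, had a summed level (its UMIs over all cells of a set per 10000 UMIs of the set) of 24.5 in Agr2-high cells and of 0.280 to 0.461 in the other sets. Atoh1, the transcription factor that starts the secretory lineage, stood at 2.11 in Agr2-high cells and at 0.0756 or less in the others, and Spdef, which acts after it in goblet and Paneth cells, at 1.23 and at 0.0796 or less. Agr2-high S phase cells thus held the RNA of both factors as well as Muc2, the main intestinal mucin, at 23.2. Lgr5 was at 0.323 in Olfm4-high cells, 0.06 or less in the 3 other sets. Lgals1, which encodes galectin-1, was at 8.62 in T cell marker cells and at 0.0511 or less elsewhere, and it was among the 15 genes on no list with the largest ratio of S phase cells to other cells. The T cell marker cells had the lowest median depth, 3831 UMIs, and the Agr2-high cells the highest, 8549. Of the Agr2-high cells 11.9% were among the 5% of cells with the highest doublet scores of their library, of the T cell marker cells 4.05%, of the Olfm4-high cells 2.49% and of the other cells 4.33%. Their part in the sets was not tested.

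Genes that the rule did not use were then set beside 3 other groups of cells: 1128 crypt cells outside the gates (Olfm4 at 10.0 or more and neither sum past its bound), 897 G2 and mitotic cells (mitotic sum of 20 or more) and 3143 villus reference cells, the 25% of each library with the most Apoa1, Apoa4, Apoc3 and Alpi RNA and an S sum under 10.0. Since the same RNA chose the cells, these are descriptions. At the start of S phase, Ccne1 and Ccne2 (cyclins E1 and E2, partners of CDK2) had levels of 0.444 and 0.339 UMIs per 10000 in S phase cells, 3.89-fold (3.07 to 4.98) and 3.04-fold (2.37 to 3.93) those of crypt cells outside the gates and 8.92-fold (6.36 to 12.8) and 8.91-fold (6.05 to 13.6) those of G2 and mitotic cells. E2f1, whose product turns on the S phase genes, was 1.88-fold the level of crypt cells and 4.05-fold that of G2 and mitotic cells. The G1/S list as a whole was mixed. Of its 19 genes with at least 100 UMIs in S phase cells, 12 had a ratio to crypt cells with the whole interval above 1 and 1 below it, and the median ratio was 1.43. Over the 6404 genes with as many UMIs, 19.8% had the whole interval above 1 and 10.4% below it, with a median ratio of 1.03, and against G2 and mitotic cells 16.3% lay above 1 and 22.3% below it.

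Of the licensing and helicase genes 15 of 16 were higher than in crypt cells by the same measure, with a median ratio of 1.62, and 15 were higher and 1 lower than in G2 and mitotic cells, with a median of 2.13. Mcm3 and Mcm5, subunits of the helicase ring, were 1.56-fold (1.40 to 1.75) and 1.85-fold (1.66 to 2.07) the level of crypt cells and 3.76-fold and 2.58-fold that of G2 and mitotic cells. Cdc45, which joins the ring when it starts to unwind DNA, was 2.59-fold (2.05 to 3.31) the level of crypt cells. Dbf4, the activator of the CDC7 kinase that fires origins, stood at 1.04-fold (0.857 to 1.27) the level of crypt cells and 0.563-fold that of G2 and mitotic cells.

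The polymerase and fork genes behaved alike, with 25 of 26 higher than in crypt cells and 24 higher than in G2 and mitotic cells. Clspn encodes claspin, which couples the fork to the checkpoint kinase CHK1, and its level of 0.520 was 3.72-fold (3.00 to 4.65) that of crypt cells. Dscc1, part of an alternative loader of PCNA, was at 3.29-fold (2.36 to 4.66) the level of crypt cells. For nucleotide supply 12 of 16 genes were higher and 1, Impdh2 of guanine nucleotide synthesis, was lower than in crypt cells. Tyms, which makes thymidylate, was 1.71-fold (1.57 to 1.87) and Tk1, the thymidine salvage kinase, 1.79-fold (1.59 to 2.01) the level of crypt cells, but they were 1.26-fold and 1.20-fold that of G2 and mitotic cells, a smaller step than for the helicase genes.

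Histone supply and chromatin genes were higher than in crypt cells in 12 of 14 cases. Against G2 and mitotic cells 8 of the 14 were higher and 3 lower, with a median ratio of 1.44. The summed level of the list was 45.3 in S phase cells and 51.7 in G2 and mitotic cells. Slbp, the protein that binds the stem-loop of replication-dependent histone mRNA, was at 2.06, which was 1.77-fold (1.63 to 1.92) the level of crypt cells and 2.61-fold (2.37 to 2.87) that of G2 and mitotic cells. Asf1b and Chaf1b, histone chaperones, were 2.34-fold and 1.96-fold the level of crypt cells. H2afz, the histone variant H2A.Z, stood at 21.9 and differed less, being 1.12-fold (1.10 to 1.15) the level of crypt cells and 0.896-fold that of G2 and mitotic cells. Among the genes on no list, Ung, the uracil-DNA glycosylase, was at 0.591 in S phase cells, 0.331 in crypt cells and 0.0551 in G2 and mitotic cells, a ratio to the last of 10.7 (7.80 to 15.1), and Tcf19 was at 3.23-fold (2.60 to 4.04) the level of crypt cells. In villus reference cells, a measure of free RNA, Ung and Clspn were at 0.0152 and Mcm3 at 0.0201. The G2 and mitosis list went the other way. Its genes that the rule had not used were lower than in G2 and mitotic cells in 19 of 19 cases, with a median ratio of 0.38, among them Mki67, the proliferation antigen Ki-67, at 0.500-fold and Plk1, a mitotic kinase, at 0.260-fold.

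**Figure D2:**
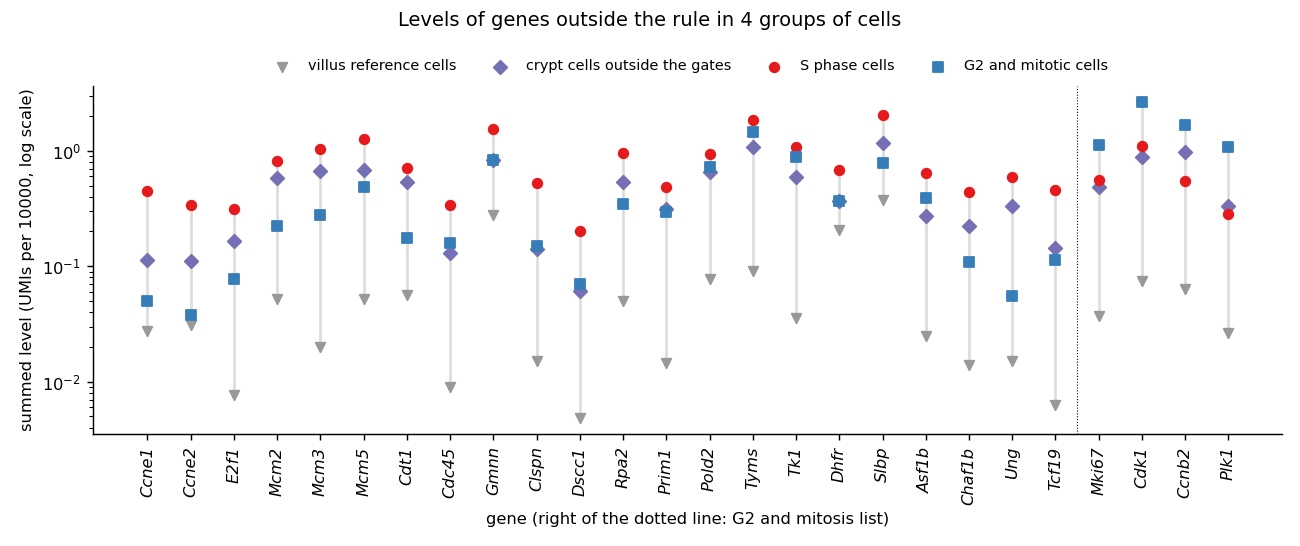
Points are summed levels (UMIs per 10000, log scale) of genes that the rule did not use, in S phase cells, G2 and mitotic cells, crypt cells outside the gates and villus reference cells of all 3 libraries together. Left of the dotted line the red points of the S phase cells are the highest of the 4 groups for the genes selected here. Right of it Mki67, Cdk1, Ccnb2 and Plk1 are highest in G2 and mitotic cells. Dbf4 and H2afz, which were higher in G2 and mitotic cells than in S phase cells, are among the genes not plotted.

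The mitotic sum, which the rule held under 20, put the Olfm4-high and other cells in 3 bins: 251 cells under 3, 403 from 3 to 10.0 and 232 from 10.0 to 20. The summed levels of the licensing and helicase list were 10.7, 11.3 and 10.4 UMIs per 10000 over the bins, of the polymerase and fork list 14, 15.4 and 14.8 and of the G1/S regulators 15.1, 15.8 and 15.5, so that these lists kept no order. Single genes, chosen after their values were seen, did. Ung was at 0.738, 0.641 and 0.384 UMIs per 10000 over the 3 bins, Mcm2 at 0.878, 0.778 and 0.693, and E2f1 at 0.397, 0.308 and 0.288. The histone supply and chromatin list had the opposite order, at 35.2, 44.5 and 53.4, as had cyclin A. The bins were cut on mitotic genes, and this list was also higher in G2 and mitotic cells than in S phase cells, so that its order is a description. Hist1h1b, a linker histone, was at 0.195, 0.394 and 0.650, Hist1h2ae, a core histone, at 0.300, 0.480 and 0.837, Ccna2 (cyclin A2) at 0.300, 0.586 and 1.02, and Hmgb2, a chromatin protein, at 6.12, 9.42 and 12.5. Olfm4 was at 31.6, 21.2 and 21.3. The median depth of the bins was 4771, 6249 and 7270 UMIs per cell, in the same order as the histone genes. The part of depth and that of the mix of libraries in the bins were not tested.

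The crypt stem list was lower in S phase cells than in crypt cells outside the gates, which Olfm4 itself had chosen, and its 15 genes with 100 UMIs had a median ratio of 0.65, with 14 below 1 by their whole interval. Olfm4 was at 21.5 and at 35.6, and Lgr5 at 0.180 and at 0.411. Against G2 and mitotic cells, 7 of the 15 were higher and none lower, with a median of 1.21.

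The share of S phase cells at the rule's threshold gave differences between the libraries whose intervals all held 0. It was 325 of 4106 cells in AOS 0, or 7.92% (7.11 to 8.78), 265 of 3195 in B + A 0, or 8.29% (7.36 to 9.30), and 429 of 5352 in B + A 10, or 8.02% (7.30 to 8.78), with Clopper-Pearson intervals. The difference of B + A 0 from AOS 0 was 0.379 percentage points (-0.875 to 1.66, Newcombe interval), that of B + A 10 from B + A 0 was -0.279 (-1.50 to 0.903), and that of B + A 10 from AOS 0 was 0.100 (-1.01 to 1.19). A difference inside these intervals was not detectable at this depth. With each cell thinned to 2000 UMIs, where the threshold was 2 UMIs, the same 3 differences were 1.18 (-0.229 to 2.61), -0.984 (-2.36 to 0.349) and 0.194 (-1.03 to 1.40), from shares of 9.84%, 11% and 10.0%. No cell had fewer than 2000 UMIs. Without the T cell marker cells the difference of B + A 10 from B + A 0 was -0.537 (-1.75 to 0.634). The sum without Pcna gave 3.51%, 3.13% and 4.76%, with B + A 10 above B + A 0 by 1.63 points (0.781 to 2.45), and the same sum after thinning gave 6.02%, 7.04% and 7.16%, with B + A 10 above B + A 0 by 0.114 (-1.03 to 1.22) and above AOS 0 by 1.14 (0.127 to 2.14). A threshold of 20 for all 6 genes, past which 47, 29 and 75 cells lay, gave 1.14%, 0.908% and 1.40%, where the difference of B + A 10 from B + A 0 turned to 0.494 (0.0102 to 0.940).

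The G2 and mitotic cells, chosen by other genes, did not keep the same share. They were 406 cells or 9.89% (8.99 to 10.8) of AOS 0, 201 or 6.29% (5.47 to 7.19) of B + A 0 and 290 or 5.42% (4.83 to 6.06) of B + A 10. B + A 0 was lower than AOS 0 by 3.60 points, with an interval of the difference of -4.83 to -2.34, and the further step to B + A 10 was -0.873 (-1.94 to 0.144). S phase cells were thus 44.5% (40.8 to 48.1) of the cells of both gates in AOS 0, 56.9% (52.2 to 61.4) in B + A 0 and 59.7% (56.0 to 63.3) in B + A 10. The difference was 12.4 points (6.60 to 18.1) from AOS 0 to B + A 0 and 2.80 (-2.92 to 8.54) from B + A 0 to B + A 10. After thinning the shares were 44.9%, 54.8% and 58.1%, with differences of 9.89 (4.83 to 14.9) and 3.29 (-1.69 to 8.27). Among all cells, the thinned shares of G2 and mitotic cells were 12.1%, 9.08% and 7.23%. B + A 0 minus AOS 0 was then -2.98 points (-4.38 to -1.56). B + A 10 minus B + A 0 was -1.85 (-3.08 to -0.653), so that this step lay outside counting error after thinning but not as deposited. Cells past both bounds numbered 35, 14 and 30, and with them S phase cells were 8.77%, 8.73% and 8.58% of the libraries. The group, the library and the handling of the tissue cannot be told apart.

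**Figure D3:**
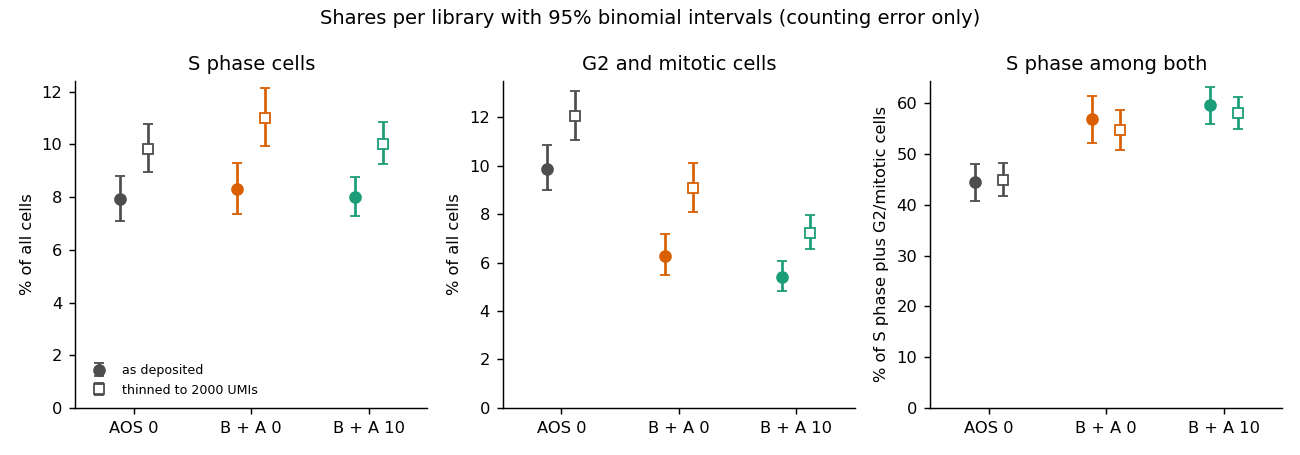
Points are the percent of cells of each library in the S phase gate, the percent in the G2 and mitotic gate, and the percent of S phase cells among both, with 95% binomial intervals for counting error only, as deposited (filled) and after thinning to 2000 UMIs (open). S phase shares lie at 7.92% to 8.29% as deposited, while G2 and mitotic cells go from 9.89% in AOS 0 to 6.29% and 5.42% in the busulfan libraries.

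Both shares were also taken within the Olfm4-high cells of each library. S phase cells were 173 of 609 in AOS 0 (28.4%), 156 of 562 in B + A 0 (27.8%) and 234 of 841 in B + A 10 (27.8%), and G2 and mitotic cells were 21.5%, 15.7% and 13.1%. B + A 0 minus AOS 0 was -5.85 points (-10.3 to -1.38) for G2 and mitotic cells. After thinning these were 25.3%, 23.5% and 18.9%, with a difference of -1.80 (-6.70 to 3.13) that no longer lay outside counting error and a difference of B + A 10 from AOS 0 of -6.38 (-10.8 to -2.07), while S phase cells were 33.8%, 35.6% and 35.2%. Of the cells in none of the 3 named sets, 4.0%, 4.07% and 4.22% were in S phase and 8.19%, 4.18% and 4.05% in G2 or mitosis.

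The Agr2-high cells were 27 of the S phase cells in AOS 0, or 8.31% (5.55 to 11.9), 22 in B + A 0, or 8.30% (5.28 to 12.3), and 10 in B + A 10, or 2.33% (1.12 to 4.24). B + A 10 was lower than B + A 0 by 5.97 points, with an interval of -10.1 to -2.62 for the difference. After thinning these cells made up 11.1%, 8.81% and 4.66%, and the difference was -4.15 (-7.88 to -0.844). Agr2-high cells were also fewer among all cells of B + A 10, at 17.1%, beside 19.5% and 23.7%. Of these cells in or out of S phase, the S phase cells were 3.37% (2.23 to 4.87) in AOS 0, 2.91% in B + A 0 and 1.09% (0.525 to 2.0) in B + A 10, and after thinning B + A 10 minus B + A 0 was -1.37 (-3.25 to 0.373).

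The T cell marker cells were 21 S phase cells in AOS 0, or 6.46% (4.04 to 9.71), 13 in B + A 0, or 4.91% (2.64 to 8.24), and 40 in B + A 10, or 9.32% (6.74 to 12.5). B + A 10 minus B + A 0 was 4.42 points (0.332 to 8.14), and 3.00 (-0.262 to 6.01) after thinning. Of the cells with T cell markers in each library, 21.9%, 22.4% and 24.5% were in S phase and 15.6%, 8.62% and 9.20% in G2 or mitosis, on 96, 58 and 163 cells, where B + A 10 minus B + A 0 for S phase had an interval of -11.5 to 13.5 points. For G2 or mitosis B + A 0 minus AOS 0 was -7.00 points (-16.9 to 4.64). After thinning the shares in G2 or mitosis were 13.5%, 15.5% and 10.4%, and this difference was 1.98 (-8.94 to 14.6). T cell marker cells were 2.34%, 1.82% and 3.05% of all cells. The T cell list had a summed level of 15.3, 11.4 and 20.1 in S phase cells, and of 0.76, 2.41 and 3.38 without the T cell marker cells, beside 4.33, 4.45 and 6.28 in villus reference cells.

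**Figure D4:**
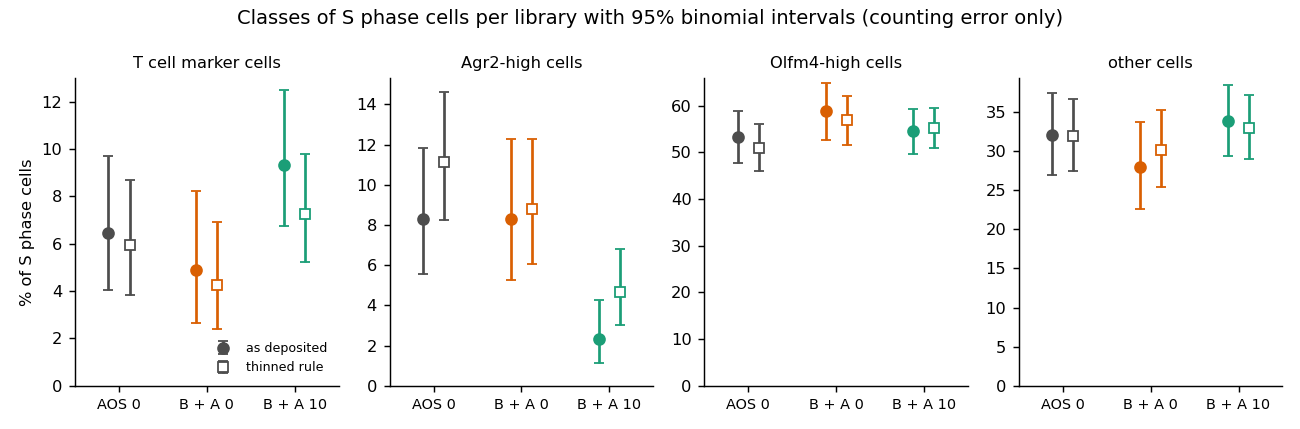
Points are the percent of S phase cells of each library that were T cell marker cells, Agr2-high, Olfm4-high or other cells, with 95% binomial intervals for counting error only, as deposited (filled) and with the rule applied after thinning to 2000 UMIs (open). Agr2-high cells lie at 2.33% in B + A 10 beside 8.31% and 8.30%, and each panel has its own vertical scale from 0.

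Gene levels were compared between libraries within the S phase cells. Each level is the UMIs of a gene over all S phase cells of a library per 10000 UMIs, and genes with at least 100 UMIs in the pair of libraries were counted as past 1.5-fold. From AOS 0 to B + A 0, 1.67% of 5333 genes were higher and 2.49% lower by more than this, from B + A 0 to B + A 10, 1.82% of 4558 were higher and 1.91% lower, and from AOS 0 to B + A 10, 3.76% of 5271 were higher and 5.58% lower. With levels scaled by the median ratio over genes, the counts were 116 higher and 85 lower in place of 89 and 133 for the first, 112 and 65 in place of 83 and 87 for the second, and 315 and 163 in place of 198 and 294 for the third, since the median log2 ratio of all genes was -0.06, -0.04 and -0.11. The comparisons share libraries and are not independent.

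Replication genes differed little one by one and were shifted as lists. Over all genes the median log2 ratio from AOS 0 to B + A 0 was -0.06, so that most genes lay slightly below 1. Of 25 polymerase and fork genes, 20 were lower and 5 higher in B + A 0 than in AOS 0, with a median log2 ratio of -0.28, and 2 of them, Prim1 and Dscc1, were lower by more than 1.5-fold. Over all genes of this pair 2.49% were lower by that much. The summed level of the polymerase and fork list was 17.2 UMIs per 10000 in AOS 0 and 14.1 in B + A 0, a ratio of 0.821 (0.784 to 0.859), and B + A 10 to B + A 0 was 0.917 (0.870 to 0.967). Of 15 licensing and helicase genes, 13 were lower in B + A 0 than in AOS 0, and their summed level was 12.1 and 10.4, a ratio of 0.856 (0.811 to 0.903), with 0.960 (0.903 to 1.02) from B + A 0 to B + A 10. Divided by the median ratio of all genes, the polymerase list was at 0.858 from AOS 0 to B + A 0 and 0.813 from AOS 0 to B + A 10. Nucleotide supply was at 0.967 (0.934 to 1.00) and G1/S regulators at 0.949 from AOS 0 to B + A 0. Histone supply and chromatin was at 1.03 (1.00 to 1.06) with Hist1h2ao and at 0.920 (0.896 to 0.945) without this 1 gene, so that it decided the direction of the list. S phase cells of the busulfan libraries thus had less RNA of the fork genes per UMI, at counting error only. Depth went the same way as these lists, highest in AOS 0. With cells chosen by the rule after thinning, B + A 0 to AOS 0 was 0.839 (0.804 to 0.875) for polymerases and 0.899 (0.855 to 0.945) for licensing. That setting changed which cells were members and kept all their UMIs, and the part of depth in the levels was not tested.

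The single replication genes with the largest difference were of low level. Gins1, a subunit of the GINS complex of the helicase, was at 0.416, 0.254 and 0.231 UMIs per 10000 in the 3 libraries, a ratio of B + A 0 to AOS 0 of 0.609 (0.433 to 0.846). Prim1, the primase that starts each Okazaki fragment, was at 0.605, 0.402 and 0.391, and Dscc1 at 0.261, 0.139 and 0.181. Tcf19 was at 0.598, 0.330 and 0.386, a ratio of 0.552 (0.412 to 0.732). In these 4 genes AOS 0 was the highest library and both busulfan libraries lay below it. Ccne2 had the same order, with 0.416, 0.273 and 0.291. Tk1 instead was lowest in B + A 10, at 1.24, 1.12 and 0.757, a ratio of B + A 10 to B + A 0 of 0.679 (0.550 to 0.837). Dck, the deoxycytidine kinase, was at 0.403, 0.488 and 0.592, so that B + A 10 to AOS 0 was 1.47 (1.13 to 1.91). Stmn1, a tubulin-binding protein of cycling cells, was at 2.47, 3.88 and 3.68.

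The crosslink repair list was looked up because busulfan crosslinks DNA. In S phase cells 10 of 12 crosslink repair genes were higher than in crypt cells outside the gates, with a median ratio of 1.58. Brca1 was at 2.39-fold the level of crypt cells and Exo1, the exonuclease that resects ends, at 2.46-fold. Between AOS 0 and B + A 0 none of 10 crosslink repair genes was past 1.5-fold, beside 1.67% of all genes higher and 2.49% lower. Of the 10, 7 were lower and 3 higher. The median log2 ratio was -0.10, beside -0.06 over all genes. Their list had a ratio of the summed level of 0.908 (0.840 to 0.981), beside a median ratio of 0.956 over all genes. From AOS 0 to B + A 10, 2 of 8, Exo1 and Msh6, were lower by more than 1.5-fold, beside 5.58% of all genes. In this pair the median log2 ratio was -0.27, beside -0.11 over all genes. The summed level had a ratio of 0.833 (0.768 to 0.903), beside a median ratio of 0.926 over all genes. From B + A 0 to B + A 10, 1 of 7 was lower by more than 1.5-fold, Msh6 of mismatch repair, beside 1.91% of all genes. Brca1, with fewer than 100 UMIs in the pair, was at 0.205, 0.187 and 0.105.

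Wee1, the kinase that holds CDK1 inactive, was the checkpoint gene past the fold, at 0.235, 0.378 and 0.336, with a ratio of B + A 0 to AOS 0 of 1.61 (1.15 to 2.25), out of 5 on the list with enough UMIs. Over all genes of this pair 1.67% were past the fold upward. The p53 targets were not higher in B + A 0 as a list. Of the 20 genes listed, the 6 with at least 100 UMIs in the pair all lay below 1 from AOS 0 to B + A 0, none by more than 1.5-fold. Their median log2 ratio was -0.28, beside -0.06 over all genes, most of which also lay below 1. The summed level of all 20 had a ratio of 0.947 (0.910 to 0.984), near the median ratio of 0.956 over all genes. Cdkn1a, the CDK inhibitor p21, was at 0.360, 0.292 and 0.276, a ratio of 0.810 (0.582 to 1.12). It was at 0.316 over all S phase cells beside 2.87 in villus reference cells, so that its S phase level was near that of crypt cells, 0.295. Mdm2, not among the 6 because it had fewer than 100 UMIs in the pair, was at 0.145, 0.177 and 0.150. Ccng1, cyclin G1, was at 0.281, 0.225 and 0.206.

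**Figure D5:**
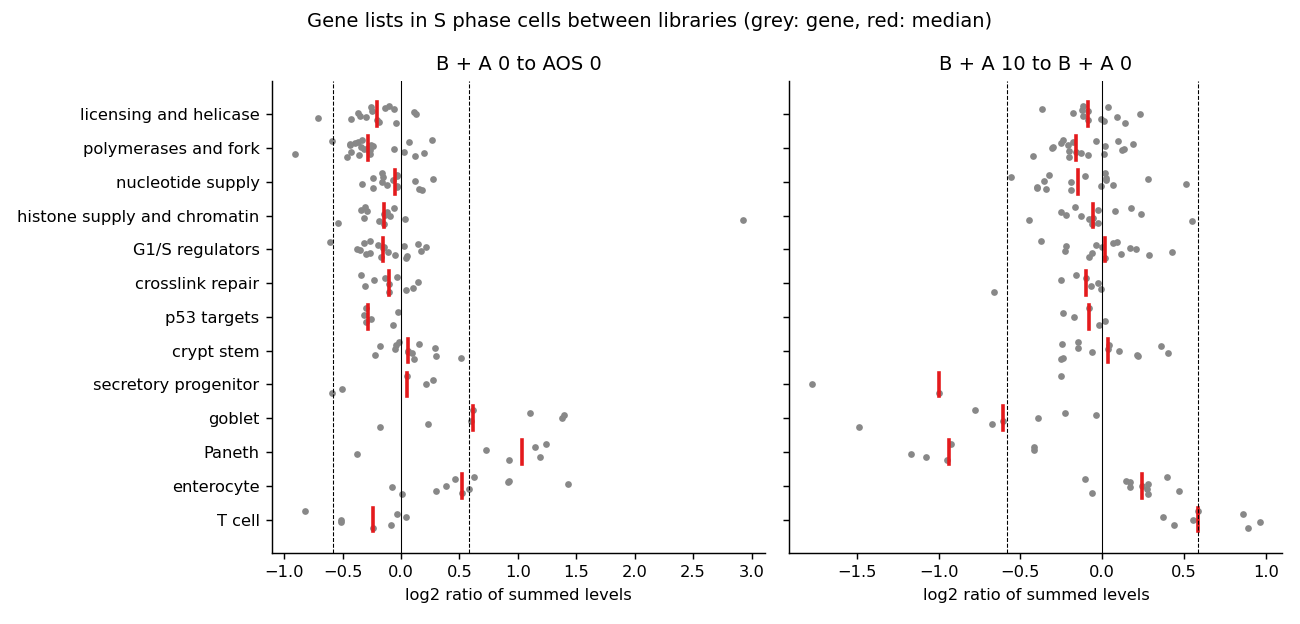
Grey points are log2 ratios of summed levels of single genes in S phase cells, B + A 0 to AOS 0 on the left and B + A 10 to B + A 0 on the right, grouped by list, with red bars for list medians and dashed lines at 1.5-fold. The polymerase and fork list has its median at -0.28 on the left, and the medians of the goblet and Paneth lists lie right of 0 there and left of 0 in the other panel. Defa22 is left out of the right panel because B + A 0 had no UMI of it.

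The highest ratios of B + A 0 to AOS 0 among the 2338 genes with at least 300 UMIs were those of Hist1h2ao and Gstp1. Hist1h2ao, a core histone H2A gene of the histone supply list (chr13:21810465-21810944 on GRCm38), was at 0.744, 5.65 and 4.14 UMIs per 10000 in the S phase cells of the 3 libraries, a ratio of B + A 0 to AOS 0 of 7.59 (6.58 to 8.80). It had a UMI in 38.8%, 67.5% and 55.2% of the cells. In all cells of the libraries the ratio was 7.11, and in villus reference cells the level was 0.0181, 0.114 and 0.123. Histone H2A genes are near copies of each other, so that reads may be split between them. Hist1h2ap had 2 UMIs in S phase cells. Gstp1, a glutathione S-transferase with a near copy in Gstp2, was at 0.522, 2.11 and 1.80 in S phase cells, a ratio of 4.04 (3.36 to 4.88), beside 3.40 in all cells. Ifi27l2b, an interferon-inducible gene, was lowest in B + A 0, at 3.44, 1.69 and 7.27, and in villus reference cells at 15.7, 6.57 and 37.8. In all cells the ratio of B + A 0 to AOS 0 for Ifi27l2b was 0.458, beside 0.491 in S phase cells, so that these 3 genes differed between libraries in and out of S phase. Rsrp1 and Ly6a, the stem cell antigen Sca-1, were at 2.22, 1.11 and 0.963 and at 2.66, 1.43 and 1.61.

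From B + A 0 to B + A 10 the 5 lowest ratios among the 1828 genes with at least 300 UMIs were those of Reg4, Agr2, Guca2a, Selm and Retnlb. Agr2 was at 21.0, 18.5 and 6.62 UMIs per 10000 in the 3 libraries, a ratio of B + A 10 to B + A 0 of 0.357 (0.335 to 0.380), beside 0.687 in all cells. Its median per cell was 1.32, 2.85 and 2.13 and the highest cell 483, 429 and 322, so that the order of the medians was not that of the summed levels. Reg4 was at 3.20, 2.25 and 0.657, a ratio of 0.292 (0.239 to 0.355). In each library 1 cell held 20.2%, 28.5% and 13.7% of the Reg4 UMIs, and without it Reg4 was at 2.57, 1.62 and 0.568. For Agr2 the top cell held 12.6%, 9.47% and 11.3%. The intervals treat UMIs as separate draws, so that for both genes they leave out the spread between cells. For Guca2a (guanylin), Retnlb (a resistin-like peptide of goblet cells) and Selm the ratios were 0.393, 0.460 and 0.450. Atoh1 was at 0.245, 0.254 and 0.120, a ratio of 0.474 (0.280 to 0.782), and Spdef at 0.178, 0.191 and 0.0752, a ratio of 0.393 (0.202 to 0.727). Agr2, Reg4, Atoh1 and Spdef were thus lowest in B + A 10, as was the share of Agr2-high cells. These are not separate observations, since the Agr2-high cells were cut on Agr2 and had the highest levels of Reg4, Atoh1 and Spdef.

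RNA of mature cells was also present in S phase cells. Of 7 goblet genes 5 were higher in B + A 0 than in AOS 0 by more than 1.5-fold, of 6 Paneth genes 5 and of 11 enterocyte genes 4. Over all genes of this pair 1.67% were higher by more than 1.5-fold. From AOS 0 to B + A 10, 3 of 7 goblet genes were higher by more than that and 1, Agr2, lower, beside 3.76% and 5.58% of all genes. The summed level of the Paneth list was 32.3, 57.8 and 40.6. Zg16, a granule protein of goblet cells, was at 9.44, 24.5 and 18.6, beside 48.1, 65.0 and 64.7 in villus reference cells, and Lyz1, the lysozyme of Paneth cells, was at 2.29, 5.42 and 2.85. Defa24 was at 21.3, 35.2 and 26.4 in S phase cells and at 18.8, 46.4 and 31.3 in villus reference cells, which should lack it. Apoa1, the apolipoprotein of chylomicrons, was at 6.78, 12.9 and 14.3 in S phase cells and at 221, 190 and 221 in villus reference cells. Fabp1, the fatty acid binding protein, was at 3.77, 5.83 and 7.68. The part of free RNA in the goblet, Paneth and enterocyte levels was not tested.

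From B + A 0 to B + A 10, 4 of 7 T cell genes were past 1.5-fold higher, and from AOS 0 to B + A 10, 2 of 7, with 1 of the 7 below 1. Over all genes of these pairs 1.82% and 3.76% were past 1.5-fold higher. Gzma, a granzyme, was at 9.72, 6.82 and 13.3, a ratio of B + A 10 to B + A 0 of 1.95, and 1.32 without the T cell marker cells. Ccl5, a chemokine, was at 4.79, 5.06 and 10.0, a ratio of 1.98, and 1.40 without them. Among the crypt stem list 13 genes had enough UMIs and none was past 1.5-fold in either step. Olfm4 was at 22.3, 22 and 19.9 and Lgr5 at 0.149, 0.220 and 0.186, a ratio of B + A 0 to AOS 0 of 1.48 (0.960 to 2.28). Of 5 immediate early and heat shock genes, Hspa1b, an HSP70, was past the fold in B + A 0, at 0.264, 0.507 and 0.577. From AOS 0 to B + A 0, 1.67% of all genes were past the fold upward.

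Some of the extreme genes came from 1 cell each. Gip, an incretin of enteroendocrine K cells, was at 4.31 in AOS 0, where 1212 of 1305 UMIs lay in 1 cell, and at 0.309 without it. Sst, somatostatin of D cells, had 296 of 298 UMIs of AOS 0 in 1 cell (99.3%). Of Hba-a1 and Hbb-b1, globins of red blood cells, 99.6% and 98.7% of the UMIs in B + A 10 lay in 1 cell. Their ratios between libraries are those of single cells and carry no statement on the group.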

How the data were processed

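Cells of 3 libraries were measured with the 10x Genomics 3′ v2 chemistry. Per the study's methods, the tissue was dissociated with TrypLE, and the authors aligned the reads to mm10 with Cell Ranger 2.2.0 with a forced number of cells, dropped cells with fewer than 200 genes and genes in fewer than 3 cells, and normalized in Seurat. They deposited 1 table of 13891 genes and 12653 cells whose values are natural logs: a cell's UMIs were scaled to a total of 10000 and 1 was added before the log. Whole UMIs were recovered from it (100% of 24333763 values above 0 were whole within 0.01). Groups came from the titles.

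Members, gene lists and cuts were chosen with earlier results of these data known. UMIs were summed over cells, and ratios have exact binomial, levels exact Poisson, shares Clopper-Pearson and differences of shares Newcombe intervals, at 95%. Counting error is all that these intervals measure, and deeper cells give narrower ones. With 1 library per group no test was made, although the plan allowed for counts. Named genes are those of 22 lists, the 15 genes on no list with the largest ratio of members to other cells among genes with at least 300 UMIs, and the 5 highest and 5 lowest ratios of each comparison. Doublets were kept. Scrublet with 30 components called 15 cells by its automatic threshold, which did not work, and the top 5% of scores per library (597 cells, 38 of them S phase cells) were left out as an alternative. Thinning drew 2000 UMIs per cell at random. The ratio step was tested on simulated data. Gene coordinates are from GENCODE on GRCm38. Scripts ran in Python 3.11.15 with matplotlib 3.10.9, anndata 0.12.19, scanpy 1.11.5, pandas 2.3.3, scipy 1.17.1 and numpy 2.4.6.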

Additional observations from a re-analysis of the deposited data

How the results depend on the processing

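Of 180 recomputed values 150 moved by less than their counting interval or, for counts of genes, by less than 1.5 times. The share of S phase cells in B + A 10 minus B + A 0 was 1.63 points and minus AOS 0 1.26 with Pcna left out of the sum. With cells that had a UMI of a T cell gene left out they were -2.07 (-4.45 to 0.0413) and -1.31 (-2.76 to 0.184). That filter left 2751, 791 and 2104 cells of the libraries, so that it took out many more cells than those with T cell markers. Without only the T cell marker cells the differences were -0.537 and -0.0844. The number of genes past 1.5-fold depended on the minimum. With at least 300 UMIs it was 37 higher and 14 lower from AOS 0 to B + A 0, 21 and 15 from B + A 0 to B + A 10, and 77 and 84 from AOS 0 to B + A 10, and with at least 1 UMI in each library 1085 and 1217, 1311 and 1229, and 1663 and 1492. Scaling by the median ratio gave 85 lower from AOS 0 to B + A 0, and 315 higher and 163 lower from AOS 0 to B + A 10. Beside crypt cells, nucleotide supply was at 1.17 without called doublets, and histone supply and chromatin at 1.21 as a mean of per-cell values. Between libraries, histone supply was taken without Hist1h2ao. Divided by the median ratio of all genes, B + A 10 to AOS 0 was 0.887 for licensing, 0.813 for polymerases, 0.964 for nucleotide supply, 0.904 for histone supply and 1.01 for G1/S regulators, which reversed, and B + A 0 to AOS 0 was 1.01 for nucleotide supply and 0.962 for histone supply. With the rule applied after thinning, licensing was at 0.869 from AOS 0 to B + A 10 and histone supply at 0.958 from B + A 0 to B + A 10. The causes were not tested. The cuts on Agr2 and the T cell list, the leaving out of T cell marker cells, thinning without Pcna and the settings of the list levels were chosen after seeing the data. Replicates could not be left out. No paired analysis was possible because each group had 1 library. In B + A 10, the shallowest library, the 6 genes of the rule rested on a median of 6 UMIs per cell.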
